A study of Danio rerio with 69 samples.

Results

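Gene expression in the pineal gland of 3-day-old zebrafish (Danio rerio) was compared between night and day. The comparison took every pineal array that the labels place at 3 days, 4 sampled at night and 3 by day, which is 7 of the 69 arrays of the study. The study also holds brain without pineal and eyes from the same age, 4 night and 3 day arrays, and 31 pineal arrays from fish of 5 and 10 days, 3 months and 1 to 2 years. All groups carried a transgene in which the promoter of aanat2 drives green fluorescent protein, and all lived at 28.5 °C with 14 h of light and 10 h of darkness a day. The glands were dissected by hand under that fluorescence, and the labels do not give the clock hour of sampling or the number of glands pooled into a replicate. As the array is hybridized to bulk tissue RNA, fewer cells of a type and less RNA per cell cannot be told apart in any result here.

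The zebrafish pineal holds photoreceptor cells that sense light directly, carry their own circadian clock and make melatonin at night. Melatonin is made from tryptophan through serotonin, and the penultimate enzyme, arylalkylamine N-acetyltransferase encoded by aanat2, sets its rhythm. The clock itself is a feedback loop in which CLOCK and BMAL proteins activate the period and cryptochrome genes, whose proteins then repress them. In zebrafish per2 is also switched on by light.

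The tissue label was checked against 10 markers of pineal photoreceptors. All 9 that could be measured were higher in pineal than in brain at 3 days (limma; the background was 2.72% of tested probe sets), by 2.18 on the log2 scale for the transcription factor otx5 up to 5.11 for the transducin subunit gngt1. The difference in exorh, the pineal opsin, was 3.42 ± 0.36 and that in aanat2 was 2.74 ± 0.34 (SE). Both sampling times have equal weight in these values.

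The 7 arrays were not equally alike. Correlations over probe sets were 0.880 to 0.940 among the night arrays, 0.884 to 0.891 among the day arrays and 0.843 to 0.903 between the times. The 3'/5' signal ratio of GAPDH control probes, a measure of RNA integrity that is higher for degraded RNA, was 1.33 to 1.91 at night, against 1.44, 1.49 and, in day replicate 1, 3.84 by day. Day replicate 1 also stood apart in muscle markers, whose summed deposited intensity over 55 genes was 8550 to 11460 at night, against 48712 in day replicate 1 and 9739 and 13403 in the other day arrays. Its sum over 55 liver and yolk genes was 73970, against 18145 and 22193 in the other day arrays, and 11148 to 15455 at night. When arrays were weighted by their agreement with the fit, night replicate 3 had the lowest weight of the 7, 0.421. Calls that were lost without day replicate 1 are named beside the results for 48 called genes, 1 probe set each. For other called genes such losses are not given singly, and for lists only the number of calls left is given.

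Of 15502 probe sets tested, 201 (1.3%) differed between night and day at an adjusted p below 0.05, 111 (0.716%) higher and 90 (0.581%) lower at night. Most of these differences were large: 105 of the higher and 82 of the lower probe sets changed at least 2-fold. With 1 probe set per gene, 130 of 8781 named genes (1.48%) were called, 60 (0.683%) higher and 70 (0.797%) lower. Night and day arrays did not overlap for 185 of the 201, against 13.2% of all probe sets (6.95% with night above and 6.27% with night below). As the 201 were picked by their difference on these same arrays, this is no separate evidence for them. Those that kept their call with any of the 7 arrays left out numbered 26, of which 12 were higher and 14 lower. The count was 116 without night replicate 1, 69 without night replicate 3 and 71 without day replicate 3, and 106, 65 and 56 of these were among the 201.

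**Figure D1:**
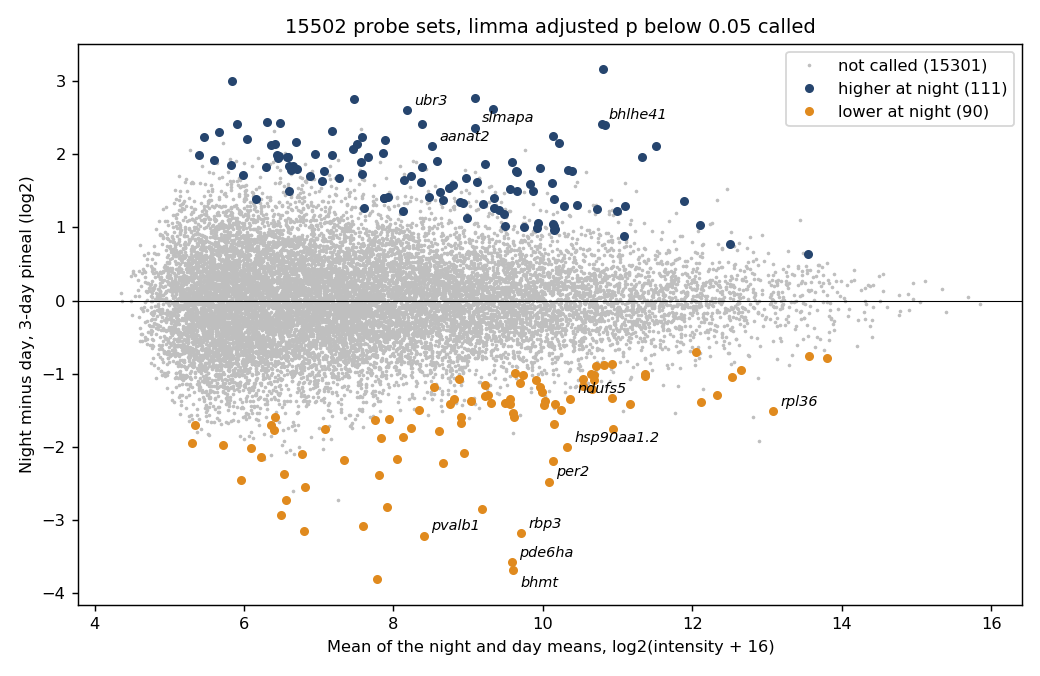
Each point is 1 of the 15502 probe sets, with the mean of the night and day group means on the x axis (log2(intensity + 16)) and the night minus day difference in 3-day pineal on the y axis (log2). Blue marks the 111 called rises and orange the 90 called falls; bhmt, pde6ha and rbp3 lie among the largest falls.

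Melatonin synthesis was represented by 12 measured genes, of which 1 was called higher at night and none lower. Of all named genes 0.683% were called higher and 0.797% lower. The list's median difference was -0.07 on the log2 scale, against -0.05 over all named genes. The called gene was aanat2. Its log2 levels were 9.03, 9.21, 10.29 and 9.73 on the night arrays, against 6.13, 8.02 and 8.23 on the day arrays. Every night array lay above every day array, and the lowest level belonged to day replicate 1. The difference was 2.11 ± 0.48 (SE), a 4.31-fold rise (limma, adjusted p = 0.0129). Without day replicate 1 it was 1.44 (adjusted p = 0.164) and without night replicate 3 it was 1.87 (adjusted p = 0.0765), so the call was lost in both cases while the direction held. The call of aanat2 was lost with an added constant of 1 and with array weights. With the GAPDH ratio as a covariate it was kept. It was lost in the fit without the 11 arrays of a GAPDH ratio above 3, of which day replicate 1 is one. Whether RNA integrity or another trait of day replicate 1 lies behind this was not tested.

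The enzymes upstream of aanat2 did not pass the test at 3 days. The tryptophan hydroxylase tph1a, which makes the serotonin precursor, had 9.20, 9.56, 9.10 and 8.95 at night, against 7.60, 8.75 and 9.10 by day. The groups overlapped, since night replicate 4 lay below day replicate 3, and the difference was 0.72 with a 95% interval of -0.13 to 1.57 (adjusted p = 0.45). For tph2, another tryptophan hydroxylase, the difference was -0.11 (interval -0.82 to 0.60), and for the decarboxylase ddc it was 0.24 (interval -0.44 to 0.93). The pterin-recycling gene qdpra, which serves the hydroxylases' cofactor, was at 1.16 (adjusted p = 0.254).

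**Figure D2:**
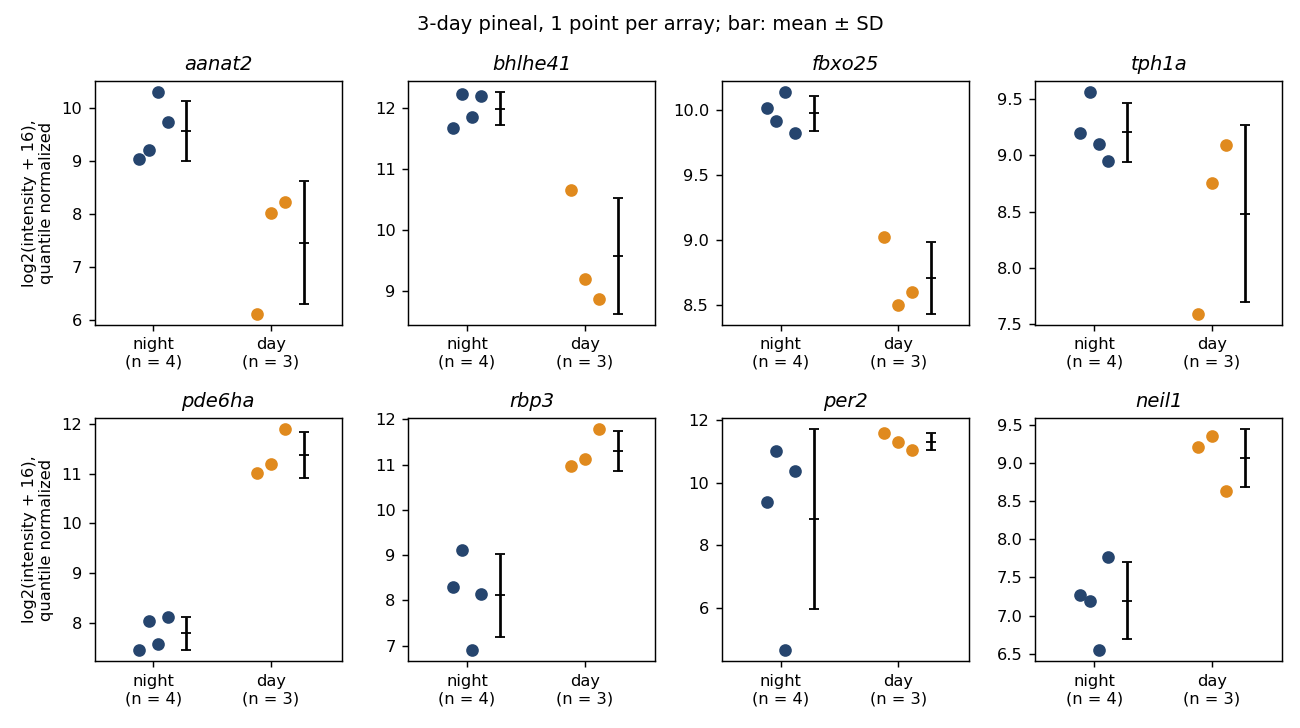
Log2(intensity + 16) after quantile normalization in 3-day pineal for 8 genes, 1 point per array, night (n = 4, blue) left of day (n = 3, orange); bars give the mean ± SD. Night lay above day without overlap for aanat2, bhlhe41 and fbxo25 and below it for pde6ha, rbp3, per2 and neil1, while the tph1a groups overlapped; the per2 night array at 4.63 is replicate 3.

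Over all named genes 0.683% were called higher and 0.797% lower at night, with a median of -0.05. Among 37 clock genes, 1 was called higher and 1 lower at night, with a median of -0.09. The higher one was bhlhe41 (also known as dec2), a repressor of clock-driven transcription. Its levels were 11.68, 12.23, 11.86 and 12.21 at night, against 10.66, 9.20 and 8.88 by day. Every night array was above every day array, and the difference of 2.42 ± 0.36 (5.33-fold, adjusted p = 7.78e-05) kept its call with any array left out.

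The lower one was per2. It had 9.37, 11.001, 4.63 and 10.36 at night, against 11.59, 11.32 and 11.04 by day. All night arrays lay below all day arrays, by a narrow margin in night replicate 2 and by far in night replicate 3, so the night SD was 2.89 and the day SD 0.27. The difference of -2.48 ± 0.62 passed the test (adjusted p = 0.0269), but without night replicate 3 it was -1.07 (adjusted p = 0.296), and the call was also lost without any 1 of the day arrays (-2.34, adjusted p = 0.0802, without day replicate 1). A second, dimmer per2 probe set differed by -0.57 (adjusted p = 0.701).

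Apart from per2, the core loop showed no called difference on these arrays. For clocka the difference was -0.21 (interval -1.10 to 0.69), for bmal1a -0.90 (-2.12 to 0.33), for per3 0.43 (-0.86 to 1.72), for cry1a -0.80 (-1.70 to 0.09) and for cry1b -0.31 (-1.23 to 0.62). These intervals still allow changes of more than 2-fold. The repressor bhlhe40, a paralog of bhlhe41, differed by 0.23 (-0.43 to 0.90), which excludes a change as large as that of bhlhe41. The clock outputs ciarta and nfil3-5 differed by 0.20 and -0.02, and nfil3-6, which belongs to the same basic leucine zipper family, by -1.16 (adjusted p = 0.283), with its other probe set at 0.51.

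The phototransduction genes turn a photon absorbed by an opsin into a fall of cyclic GMP through transducin and the phosphodiesterase PDE6. Of 35 measured, 1 was called lower and none higher, against 0.797% and 0.683% of all named genes. The list median was -0.09, against -0.05. The called gene was pde6ha, which encodes a small inhibitory gamma subunit of the cone phosphodiesterase. Levels were 7.45, 8.04, 7.57 and 8.11 at night, against 11.02, 11.19 and 11.90 by day. No day array came within 2 log2 units of a night array. The fall of 3.58 ± 0.56 amounted to 11.95-fold (adjusted p = 0.000102), a second pde6ha probe set fell by 2.83 ± 0.57 (adjusted p = 0.00457), and both kept their calls with any array left out.

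The catalytic and upstream partners did not pass the test. The rod-type subunit pde6a differed by -0.49 (adjusted p = 0.665), the cone-type subunit pde6c by -0.53 (adjusted p = 0.71), the transducin gnat1 by 0.07 and the opsin exorh by 0.19 (interval -0.83 to 1.21). The paralog pde6hb differed by -1.09 (adjusted p = 0.318), and guca1aa, an activator of guanylate cyclase that opposes the phosphodiesterase, by 1.73 (adjusted p = 0.0649). The factors that specify these cells gave no call among 36 genes, against 1.48% of all named genes, with otx5 at 0.03 and crx at -0.18.

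Of 23 genes for retinoid handling and photoreceptor structure, 1 was called lower and none higher, against 0.797% and 0.683% of all named genes. The list median was -0.36, against -0.05. The called gene, rbp3, encodes the interphotoreceptor protein that carries retinoids outside the cells. It had 8.29, 9.12, 6.90 and 8.15 at night, against 10.98, 11.13 and 11.79 by day, and the groups were far apart. The difference was -3.18 ± 0.58 (9.09-fold lower at night, adjusted p = 0.0011), and it kept its call with any array left out. The related carrier rbp4l had 11.42, 12.34, 11.85 and 12.11 at night, against 13.27, 14.04 and 14.23 by day. Its groups did not overlap either, but the difference of -1.92 ± 0.54 missed the threshold (adjusted p = 0.051). The summed intensity of the 23 genes was 20491 to 30234 at night, against 33406 to 58386 by day. Such a sum weighs bright genes most, and rbp4l alone had 2835 to 5243 at night, against 10787 to 23874 by day. Of the 23 genes 9 had a positive and 14 a negative difference, so the sum does not show a fall of the whole list.

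Among 49 genes of light response and DNA repair, 1 was called lower and none higher, with a median of -0.01. For this list and the next, the background was 0.797% of named genes lower, 0.683% higher and a median of -0.05. The base excision glycosylase neil1 had 7.27, 7.20, 6.55 and 7.77 at night, against 9.20, 9.35 and 8.63 by day. The groups did not overlap, and the difference of -1.87 ± 0.39 (adjusted p = 0.00584) kept its call with any array left out. Of 36 genes for heme, peroxide and oxidative stress, only the glutathione peroxidase gpx4b was called, at -1.53 ± 0.35 (adjusted p = 0.0132), and it was not called without night replicate 3 or day replicate 3.

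A broader set of falls was seen in genes of energy metabolism. Of 84 genes of the respiratory chain, citrate cycle and ATP synthase, 10 were called lower at night and none higher, 70 had a negative difference and the median was -0.57. Of all 8781 named genes, 70 (0.797%) were called lower, 4700 were negative and the median was -0.05. The complex I subunits ndufs5 and ndufa5 had the clearest falls. For ndufs5 the levels were 9.60, 9.59, 9.48 and 10.11 at night, against 11.03, 11.31 and 10.77 by day, without overlap (-1.34 ± 0.24, adjusted p = 0.0011). For ndufa5 they were 10.10, 10.89, 10.47 and 10.36 at night, against 11.64, 12.06 and 11.91 by day (-1.41 ± 0.31, adjusted p = 0.0102). Both kept their calls with any array left out. The call of cox17, a copper chaperone of cytochrome oxidase outside the list, was kept likewise (-1.60 ± 0.30, limma, adjusted p = 0.00147). As cox17 was chosen after its values were seen, it is no separate evidence for the list.

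The other called members were 3 complex I subunits (ndufb4, ndufb8 and ndufv2), the complex III subunit uqcrq and the ATP synthase subunits atp5mf, atp5f1c, atp5meb and atp5pd, with differences from -0.87 to -1.42. The list held 7 lower calls without day replicate 1, 5 without day replicate 3 and 2 without night replicate 3, with list medians of -0.52, -0.51 and -0.42. The members that lost their calls are not named singly here. Of 37 genes of glycolysis, 1 was called, against 1.48% of all named genes, and in the other direction. The aldolase aldocb was at 13.85, 13.86, 13.53 and 14.23 at night, against 13.21, 13.31 and 13.18 by day (0.64 ± 0.18, adjusted p = 0.0487), a call kept in 1 of the 7 fits with an array left out (0.63, adjusted p = 0.106, without day replicate 1).

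For the next lists the background was again 70 of 8781 named genes (0.797%) called lower, 4700 negative and a median of -0.05. Ribosomal protein genes, a list chosen after the values were seen, held 69 measured genes, of which 6 were called lower and none higher, with 59 negative and a median of -0.27. The largest falls were in rpl36 (-1.51 ± 0.36, adjusted p = 0.0209), rpl8 (-1.29 ± 0.28, adjusted p = 0.00922) and rps26l (-1.05 ± 0.24, adjusted p = 0.0129). This list had 4 calls without day replicate 1, 2 without day replicate 3 and 1 without night replicate 3, with rpl8 at -1.06 (adjusted p = 0.0746) and rps26l at -0.89 (adjusted p = 0.0806) without day replicate 1. The chaperone list gave 2 lower calls of 51 genes and a median of -0.41. The inducible heat shock protein hsp90aa1.2 had 9.36, 9.39, 9.83 and 8.71 at night, against 11.53, 11.03 and 11.42 by day, without overlap (-2.005 ± 0.41, 4.01-fold lower, adjusted p = 0.00481), and its co-chaperone fkbp4 fell by 0.94 ± 0.22 (adjusted p = 0.0183). The call of hsp90aa1.2 held with any array left out, though its other probe set differed by -0.80 (adjusted p = 0.591), and that of fkbp4 was lost without day replicate 1 (adjusted p = 0.0802) or day replicate 3 (adjusted p = 0.0632).

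Among all 8781 named genes 4700 were negative, with a median of -0.05. Of 65 genes of the cell cycle and DNA replication none was called (limma), although 52 were negative and the median was -0.42. The summed intensity of this list was 64817 to 71310 at night, against 77731 to 86628 by day. The anaphase-promoting complex subunit cdc26, outside the list, was chosen after its values were seen and is no evidence for the list. It had 8.10, 8.06, 7.44 and 7.996 at night, against 9.47, 10.24 and 10.26 by day. It fell by 2.09 ± 0.34 (adjusted p = 0.000173), and kept its call with any array left out. The nuclear anchoring protein akap8l, also chosen after its values were seen, fell by 1.75 ± 0.33 (limma, adjusted p = 0.00197) and kept its call likewise.

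**Figure D3:**
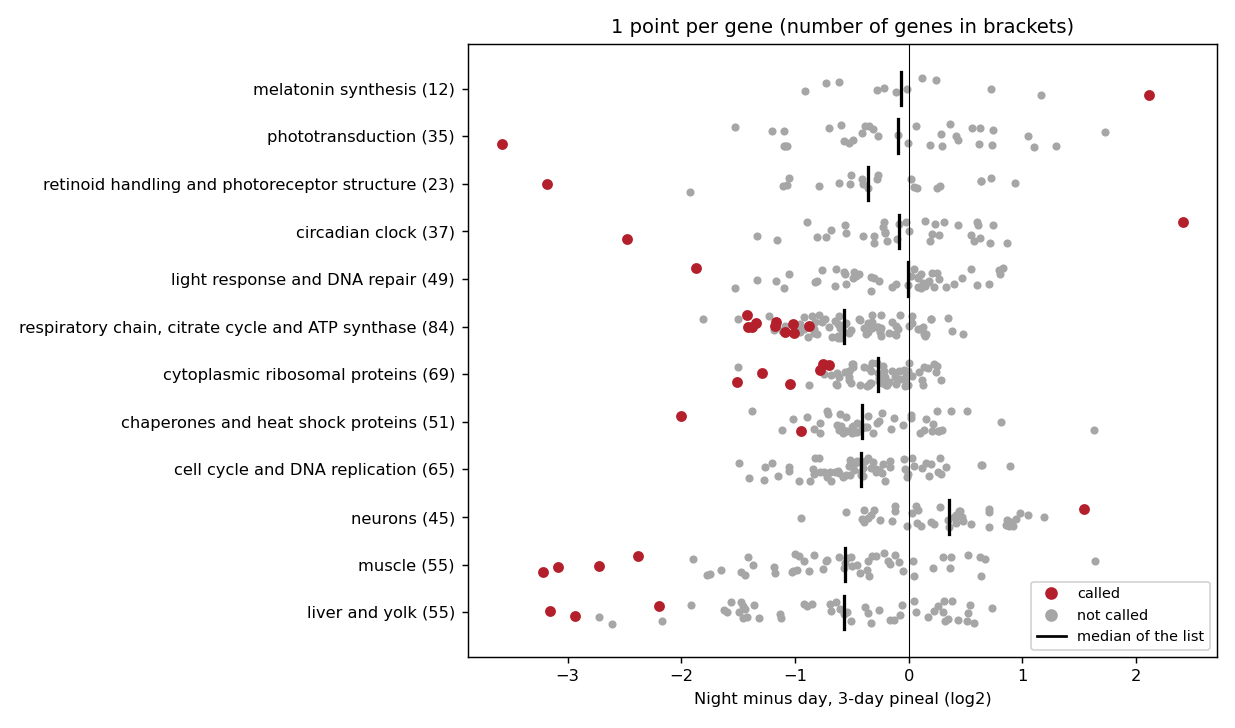
Night minus day differences in 3-day pineal (log2, x axis) of every measured gene of 12 lists, 1 point per gene with the number of genes in brackets; red points were called and black bars mark list medians. The respiratory list has 10 red points, all below 0, around a median of -0.57, and the muscle and the liver and yolk lists have 4 and 3 red points below 0.

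Genes with clone-type names were not described among the largest rises and falls, which left out si:ch73-31d8.2 at 2.41 (adjusted p = 0.0311) and si:dkey-100n23.3 at -2.85 (adjusted p = 0.000102), the second of which was also called at 3 later ages. The 12 largest other rises at night, with bhlhe41 among them, ranged from 2.15 to 2.60 and belonged to several kinds of genes. The largest, ubr3, which encodes a ubiquitin ligase of the N-recognin family, had 9.52, 8.24, 11.16 and 9.01 at night, against 7.03, 7.47 and 6.14 by day (2.60 ± 0.62, adjusted p = 0.0189), and was not called without day replicate 3 or night replicate 3. Rises with calls that held with any array left out were found in slmapa, which encodes a tail-anchored membrane protein (2.36 ± 0.41, adjusted p = 0.000573), in tnfsf10l, a ligand of the tumour necrosis factor family (2.198 ± 0.35, adjusted p = 0.000119), and in vapb, an endoplasmic reticulum protein at membrane contact sites (2.16 ± 0.44, adjusted p = 0.00481). The groups did not overlap in any of the 3. The other probe sets of slmapa differed by 1.34, 1.29, 1.29, 0.17 and -0.68. None of them was called (lowest adjusted p = 0.0539, limma), so the call rests on 1 of 6.

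The other rises included the retinoic acid receptors rarga (2.23 ± 0.51, adjusted p = 0.0129) and rarab (2.15 ± 0.46, adjusted p = 0.00875), ligand-activated transcription factors. Guidance signals were represented by efnb2a, an ephrin (2.21 ± 0.51, adjusted p = 0.0145), and sema3ab, a secreted semaphorin (2.23 ± 0.60, adjusted p = 0.0414). The remaining genes were dlg1a, a scaffold of cell junctions (2.45), the lipid kinase pip4k2ab (2.41) and the histone demethylase phf2 (2.41). Calls for phf2 and sema3ab held in 1 of the 7 fits with an array left out, and that for pip4k2ab in 2. Without day replicate 1, phf2 was at 2.05 (adjusted p = 0.163) and sema3ab at 2.16 (adjusted p = 0.103). A second rarga probe set differed by 1.37 (adjusted p = 0.237). Those for rarga, rarab and dlg1a were lost without day replicate 3 alone, and that for efnb2a without day replicate 3 or night replicate 3.

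Of all 8781 named genes 4081 were positive, 60 (0.683%) were called higher and the median was -0.05. Of 45 neuronal genes 32 were positive, the median was 0.35 and 1 was called. It was elavl4, which encodes a neuronal RNA-binding protein, with 9.10, 9.19, 10.04 and 9.70 at night, against 8.15, 8.39 and 7.35 by day (1.54 ± 0.35, adjusted p = 0.0125), a call lost without day replicate 3 (adjusted p = 0.137) or night replicate 3 (adjusted p = 0.0682). The summed neuronal intensity was 123645 to 145776 at night, against 109987 to 119785 by day, without overlap. For 11 habenula markers, from the brain region next to the gland, the sum was 7459 to 9700 at night, against 6772 to 7819 by day, and none was called. The part of other cell types in the rises was not tested.

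The 12 largest falls, clone-type names left out, were mixed in kind. Apart from pde6ha, rbp3 and per2 they included muscle genes (pvalb1, pvalb2, tnni2a.4 and actc1b), genes expressed in liver or yolk (bhmt, apoc2 and apoea) and the complement gene cfhl4. The muscle parvalbumin pvalb1 had 6.08, 7.45, 7.44 and 6.21 at night, against 13.64, 6.53 and 9.85 by day. The groups overlapped, and the call (-3.21 ± 0.81, adjusted p = 0.0303) was lost without day replicate 1, the array with the high muscle and liver sums (-1.40, adjusted p = 0.434). The calls of pvalb2, tnni2a.4, actc1b, apoc2, apoea and cfhl4 were lost likewise, at -0.98, -1.62, -1.14, -1.75, -1.60 and -1.55. Without that array, 0 of 55 muscle genes and 0 of 55 liver and yolk genes were called (limma), against 4 and 3 with it, and the list medians were -0.28 and -0.20, against -0.56 and -0.57 with it.

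Of the falls in these tissues, that of bhmt held without it. This gene, which encodes the betaine-homocysteine methyltransferase of methionine metabolism, had 7.49, 8.17, 7.64 and 7.73 at night, against 13.10, 10.76 and 10.48 by day. All day arrays were far above all night arrays, also apart from replicate 1, and the difference of -3.69 ± 0.64 (12.9-fold lower, adjusted p = 0.000579) kept its call with any array left out, at -2.86 (adjusted p = 0.0215) without day replicate 1. A second bhmt probe set differed by -1.49 ± 0.55 and was not called (adjusted p = 0.164). The liver and yolk sum was also higher on all 3 day arrays than on any night array, and its part in this result was not tested. The last of the falls, ccdc62, a coiled-coil protein gene, differed by -2.37 ± 0.49 (adjusted p = 0.00511), whereas its other probe set differed by -0.19, and it was not called without day replicate 2.

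**Figure D4:**
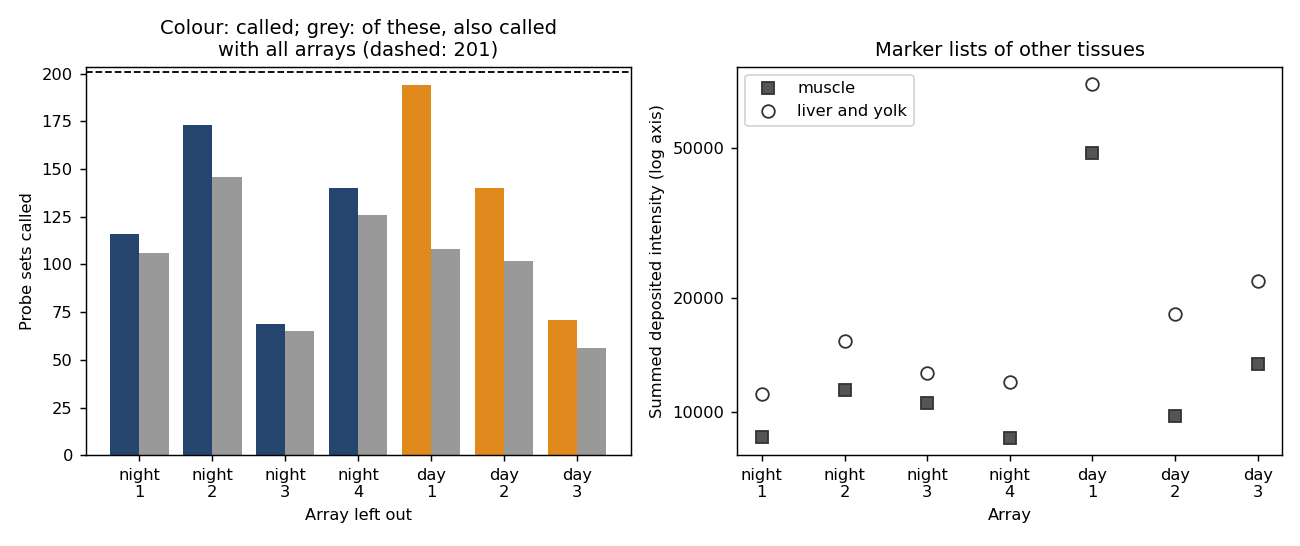
Left, probe sets called for night against day in 3-day pineal when each array was left out (blue, a night array; orange, a day array), with those also called with all 7 arrays in grey and the full count of 201 dashed; the count was lowest, 69, without night replicate 3. Right, summed deposited intensity of 55 muscle and 55 liver and yolk genes on each array (log axis); day replicate 1 stands above the others at 48712 and 73970.

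The lists of markers for other tissues otherwise gave few calls. Of all named genes 1.48% were called, so lists this small would hold few calls in any case. A lack of calls therefore does not show that a tissue was alike at night and by day. None was called among 30 astroglial, 10 oligodendrocyte, 15 red blood cell, 18 vessel, 52 skin, 49 connective tissue, 16 pigment cell, 25 lens and retina and 25 hormone genes (limma). In the immune list of 39 genes 1 was called, the apolipoprotein apoc1 (-2.19 ± 0.50, adjusted p = 0.0135), which the liver and yolk list also holds. Its level in day replicate 1 was 13.17, against 9.94 and 10.59 on the other day arrays, and without that array the difference was -1.23 (adjusted p = 0.253).

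The same contrast in 3-day brain gave 13 calls (0.0839%), of which 7 were rises at night (0.0452%) and 6 falls (0.0387%). No probe set passed the test of whether the night-day difference differed between pineal and brain (limma, 0%, with 591 at an unadjusted p below 0.05), so no difference is shown to be particular to the gland. The differences in aanat2 and bhlhe41 were 2.11 and 2.42 in pineal, against -0.21 and -0.05 in brain. The tests of the difference gave 2.32 ± 0.68 (adjusted p = 0.933) for aanat2 and 2.47 ± 0.50 (adjusted p = 0.111) for bhlhe41. The falls in pde6ha, per2, rbp3, neil1 and hsp90aa1.2 were also negative in brain, at -2.13, -2.09, -1.45, -1.56 and -1.56. None of these was called in brain (limma, lowest adjusted p = 0.0832, for neil1).

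Many calls in pineal had the same sign in brain, though pineal and brain arrays of the same replicate number were weakly correlated and may not be independent. Among the 111 probe sets higher at night in pineal 100 were positive in brain with 1 called, and among the 90 lower ones 81 were negative with 4 called, against 7645 positive and 7857 negative of all tested. The complex I gene ndufa5 was called in both, at -1.41 in pineal and -1.42 in brain (adjusted p = 0.0368 in brain). So were ndufv2 (-1.18 in pineal, -1.40 in brain, adjusted p = 0.0368), akap8l (-1.75 in pineal, -1.83 in brain, adjusted p = 0.00827) and rps26l (-1.05 in pineal, -1.06 in brain, adjusted p = 0.0473). The brain calls depended on single arrays: 0 of the 13 remained without brain night replicate 1, 1 without brain day replicate 1, 2 each without brain day replicate 2 and brain night replicate 3, 4 without brain night replicate 2, 5 without brain night replicate 4, and 8 without brain day replicate 3, where 35 were called in all. The medians in brain were -0.41 for the respiratory list and -0.31 for the ribosomal proteins, against -0.57 and -0.27 in pineal. The opposite pattern, a call in pineal with a value near 0 in brain, was seen in rarab (-0.21 in brain) and in the muscle genes pvalb1 and tnni2a.4 (0.22 and 0.04), though the difference was not called for these either. The pineal calls of both muscle genes were lost without pineal day replicate 1, the array with the high muscle sum. Brain day replicate 1 also had a high GAPDH ratio, 6.09, against 1.32 to 1.66 in night brain, and its part in the shared falls was not tested.

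At later ages, where 0.419% (5 days), 0.587% (10 days), 0.252% (3 months) and 0.419% (1 to 2 years) of probe sets were called, 17 of the 201 probe sets were called in the same direction at 1 or more of 4 ages, and 43 had the same sign at all 4, against 1476 of all 15502. The only gene called at each age was aanat2, with 3.04, 2.43, 2.39 and 1.99 at 5 days, 10 days, 3 months and 1 to 2 years, after 2.11 at 3 days. At 3 of the later ages per2, bhlhe41 and fbxo25 were also called. The F-box gene fbxo25 had 10.02, 9.91, 10.14 and 9.82 at night, against 9.02, 8.50 and 8.60 by day at 3 days (1.27 ± 0.25, adjusted p = 0.00365), and later 0.63, 1.48, 1.19 and 1.69. A second fbxo25 probe set differed by 0.30 at 3 days (adjusted p = 0.822). At 2 later ages pde6ha, rbp3, hsp90aa1.2 and the RING-domain gene lonrf4 were also called, the last at -1.08 ± 0.30 at 3 days (adjusted p = 0.0476), a call kept in 1 of the 7 fits with an array left out (-1.08, adjusted p = 0.0958, without day replicate 1).

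The photoreceptor genes had their later values as follows. For pde6ha the differences were -3.84, -2.40, -1.37 and -1.02 from 5 days to 1 to 2 years, and for rbp3 they were -2.75, -1.89, -2.37 and -2.998. In neither gene was the 3-day difference called against the mean of the later ages (-1.42 ± 0.62, adjusted p = 0.345, and -0.68 ± 0.64, adjusted p = 0.729). For neil1 the later values were -1.23, -1.56, -0.16 and -1.06, with 1 call, at 10 days.

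The test of the 3-day difference against the equally weighted mean of the 4 later ages called 35 probe sets (0.226%), 17 higher (0.11%) and 18 lower (0.116%). The clock-linked repressor gene nfil3-5 was one, with -0.02 at 3 days and -0.46, -0.75, -2.32 and -2.87 at the later ages (1.58 ± 0.35, adjusted p = 0.0372). Against the mean of 5 and 10 days alone, its 3-day difference was not called (0.58 ± 0.37, adjusted p = 0.508). For tnfsf10l the 3-day rise of 2.198 stood against later values of -0.09, -0.10, -0.47 and 0.20 (2.31 ± 0.39, adjusted p = 0.00203). Rises that differed in the same way were found in slmapa, efnb2a, elavl4, the glycogen-targeting phosphatase subunit ppp1r3cb (1.82 ± 0.49), mfap3l (1.97 ± 0.46) and the tRNA guanylyltransferase thg1l (1.86 ± 0.44). A second thg1l probe set lay in the other direction at 3 days, at -1.48 ± 0.55 (adjusted p = 0.174). Of these, ppp1r3cb overlapped between night and day at 3 days, since day replicate 1 was at 7.04 and 2 night arrays were at 6.54 and 6.86. With an array left out, the 3-day night-day call was kept in 2 of the 7 fits for ppp1r3cb, 5 for mfap3l and 4 for thg1l. Those of ppp1r3cb and thg1l were also lost with an added constant of 64.

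The falls that differed from the later ages included bhmt (-3.25 ± 0.71, adjusted p = 0.0372), ccdc62, ndufs5 (-1.33 ± 0.27, adjusted p = 0.0167), gpx4b, cdc26, akap8l and pam16, a subunit of the mitochondrial import motor that was at -2.22 ± 0.48 at 3 days and at -1.93 without day replicate 1 (adjusted p = 0.056). The respiratory list, with a median of -0.57 at 3 days, had medians of 0.09, -0.05, -0.30 and -0.08 at the later ages. The number called against later ages was 4 without night replicate 3, 9 without day replicate 3, 12 without night replicate 1, 17 without night replicate 4 and 65 without day replicate 1. Against the mean of 5 and 10 days alone it was 82. The calls against later ages of tnfsf10l and ccdc62 held with any array left out. Without night replicate 3, 3 of the 35 remained: 2 higher, tnfsf10l among them, and 1 lower, which was ccdc62. The calls of bhmt, ndufs5, gpx4b, cdc26, akap8l and pam16 against later ages were thus lost without that array. That of nfil3-5 was lost without day replicate 2 (1.29, adjusted p = 0.135), that of bhmt also without day replicate 1 (-2.42, adjusted p = 0.136), and those of efnb2a and thg1l without any 1 of the 7 arrays. For nfil3-5 and the genes named for this difference together, calls were kept 27 times and lost 50 times over these fits. The calls of ppp1r3cb, mfap3l, pam16, pvalb2 and apoc1 against later ages were thus mostly lost as well.

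**Figure D5:**
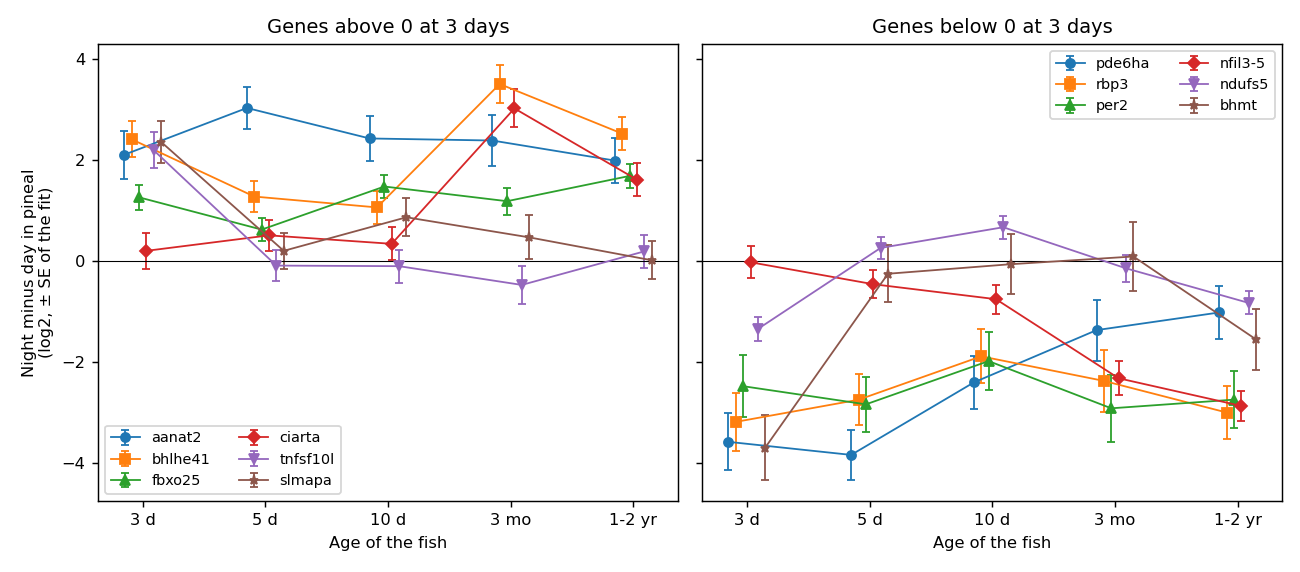
Night minus day difference in pineal (log2, ± SE of the limma fit) at the 5 ages for genes above 0 at 3 days (left) and below 0 at 3 days (right). The lines of aanat2, bhlhe41 and fbxo25 stay above 0 and those of pde6ha, rbp3 and per2 below it, while tnfsf10l, at 2.198 at 3 days, lies between -0.47 and 0.20 later and bhmt, at -3.69 at 3 days, between -1.55 and 0.09.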

How the data were processed

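Pineal gland and brain were measured on 69 one-colour Affymetrix Zebrafish Genome Arrays, 1 biological replicate each per the labels' descriptions. Each array column of the deposited file gave a linear intensity for every probe set, and the mean of each array without its highest and lowest 2% of values was 500.1 to 500.2, a common scale set before deposit. How the probes of a set were combined, and any background correction, are not given in the sources used here. From the 15617 deposited probe sets per array 115 control probe sets were removed first. To each remaining intensity 16 was added, log2 was taken, and arrays were quantile normalized over the 15502 probe sets that entered the tests.

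Limma 3.58.1 in R 4.3.3 fitted 1 mean per group over 20 groups (49 residual and 14.3 prior degrees of freedom). Contrasts were tested two-sided, with Benjamini-Hochberg adjustment over all probe sets, and called at an adjusted p below 0.05. The steps were tested on simulated data. Replicate numbers did not pair night with day arrays: the deviations of same-numbered arrays from their group means correlated at 0.024, -0.017 and 0.014. Between pineal and brain at 3 days, same-numbered arrays correlated at 0.055, 0.105, 0.101 and 0.079 at night and 0.102, -0.012 and 0.055 by day. The main fit took the tissues as independent. The random replicate block among the alternatives had a consensus correlation of 0.116. The number of arrays limits the precision.

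Names came from the platform annotation with symbols updated by gene identifier; 10795 probe sets had 1 symbol, 135 several and 4572 none here. Where several probe sets had the same symbol, the brightest on average stood for the gene. Clone-type names were counted among genes but left out when genes were chosen to be named. The text names the 12 largest rises and 12 largest falls, up to 3 called members of each gene list (or, where none was called, its brightest member), a standing list of melatonin, opsin and clock genes, and the 5 largest called differences from later ages in each direction. Another 9 genes were chosen after their values were seen: fbxo25, lonrf4, appa, cox17, cdc26, akap8l, rpl36, rpl8 and rps26l. So were the list of ribosomal proteins and the uncalled members given as examples of a list. Members and lists were chosen with earlier results of these data known. No set test was run. Alternatives were other scalings and added constants, a filter on dim probe sets, array weights, blocks, the GAPDH ratio as a covariate, smaller fits, and each array left out in turn.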

Additional observations from a re-analysis of the deposited data

Results flagged for a closer look

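In 103 groups of 4 night values tested (named genes and list sums), 6 held a night array far from the others by Dixon's criterion, which chance alone meets in about 1 of 20 groups. In 5 of them the array was night replicate 3. Its log2 level was 7.718 for gpx4b, 4.8325 for cry1a, 7.4369 for cdc26 and 9.5925 for akap8l, each below the other night arrays, and its summed intensity of cell cycle genes was 71310, above the others at 64817 to 65112. The sixth was rarga, at 9.1451 in night replicate 1, above the others.

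The night-day difference at 3 days differed from the mean of the later ages (limma, adjusted p below 0.05) for 17 of the 75 named genes, against 0.226% of all probe sets. Of the 17, 10 were named because this difference was called. The others except nfil3-5 were called for night against day at 3 days, which is a term of this difference. The count was therefore largely fixed by the choice of genes and is no result about them. The 3-day value was higher for slmapa (by 1.97), efnb2a (2.35), tnfsf10l (2.31), elavl4 (1.61), nfil3-5 (1.58), ppp1r3cb (2.29), mfap3l (2.18) and thg1l (2.07). It was lower for bhmt (-3.25), pvalb2 (-3.91), ccdc62 (-2.97), gpx4b (-1.64), ndufs5 (-1.33), apoc1 (-2.43), pam16 (-2.26), cdc26 (-1.93) and akap8l (-1.78). Leaving out day replicate 1, where pvalb2 was at 13.34, against 6.42 and 7.63 on the other day arrays, ended the call of pvalb2 for night against day.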

How the results depend on the processing

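The count of 201 for night against day in 3-day pineal became 356 with the replicate number within an age as a block (204 higher, 152 lower), 479 without the 11 arrays of a GAPDH ratio above 3, 432 with the 14 arrays of 3 days alone and 60 with the 38 pineal arrays alone, and ranged over 69 to 194 with 1 array left out. With the GAPDH ratio as covariate it was 272 (151 higher, 121 lower), with all 201 among them. Of 48 called named genes none changed direction under any of these settings; 48 kept their call with the replicate block, 37 without the arrays of high GAPDH ratio and 29 with pineal arrays alone. The replicate numbers share nothing that the labels name. The brain count of 13 became 7 without scaling, 4 with median centring, 245 with array weights, 48 with the replicate block, 8 with the GAPDH ratio as covariate, 28 without arrays of high ratio and 131 with the arrays of 3 days alone, and ranged over 0 to 35. The count of 0 between tissues became 1 with a random replicate block and 1 without arrays of high GAPDH ratio, and ranged over 0 to 1 with 1 array left out. In each such case the called probe set was that of bhlhe41 or aanat2, the genes followed in this test. The count of 35 against later ages became 20 with array weights, 87 with the replicate block, 60 with the GAPDH covariate, 207 without arrays of high ratio, 6 with pineal arrays alone and 82 against 5 and 10 days, and ranged over 4 to 65. The causes were not tested. Uncalled genes near 0 turned sign: cdkn1bb to -0.086 without scaling and -0.14 with median centring; crx to 0.026 and tph2 to 0.002 with the replicate block; neurod6b to 0.10 with array weights; nfil3-5 to 0.037 with array weights and 0.036 with the GAPDH covariate; otx5 to -0.058 with array weights. Without arrays of high ratio neurod6b was 0.26, nfil3-5 0.14, otx5 -0.016 and tspan2a 0.22. With 1 array left out the ranges were -0.011 to 0.10 for cdkn1bb, -0.34 to 0.001 for clocka, -0.39 to 0.11 for crx, -0.84 to 0.003 for cry1b, -0.086 to 0.51 for ddc, -0.61 to 0.12 for fli1, -0.24 to 0.26 for neurod6b, -0.31 to 0.14 for nfil3-5, -0.12 to 0.34 for otx5, -0.36 to 0.012 for tph2 and -0.43 to 0.22 for tspan2a. Probe sets with intensities near the added constant of 16 have compressed differences, and 9759 probe sets remained with the filter on dim ones. Of the 48 called named genes 40 remained with this filter, and all 40 kept their call. The called genes that the filter removed as dim were sema3ab, apoc2, pvalb2, apoea, tnni2a.4, cfhl4, ppp1r3cb and thg1l. They were not tested under it.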

Other observations

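The brightest members of lists without calls were also read. The skin marker icn2 had log2 means of 14.84 at night and 14.97 by day, the matrix protein postnb 13.19 and 12.99, the glutamate transporter slc1a2b of astroglia 13.43 and 13.10, the carbonic anhydrase ca2 of red blood cells 12.02 and 12.30, the neuropeptide gene adcyap1b 12.15 and 11.98, and the transcription factor tfap2a 12.85 and 12.59. Among these the difference in slc1a2b was 0.33 with a 95% interval of -0.26 to 0.92. The pigment cell list was led by the purine synthesis gene paics, at 8.76 at night and 9.51 by day, with all night arrays below all day arrays, a difference of -0.75 (interval -1.40 to -0.09, adjusted p = 0.274). The cell cycle inhibitor cdkn1bb had 13.24 at night and 13.19 by day, while its other probe set rose by 1.34 ± 0.35 (limma, adjusted p = 0.0324). The amyloid precursor gene appa, chosen after its values were seen, had 11.30, 11.16, 11.10 and 11.53 at night, against 9.45, 9.48 and 9.55 by day. Its rise of 1.78 ± 0.46 (adjusted p = 0.032) kept its call in 1 of the 7 fits with an array left out (1.76, adjusted p = 0.0746, without day replicate 1), and a second appa probe set differed by -0.19 (adjusted p = 0.91). At the later ages the difference was 0.48, -0.16, 0.86 and 1.75, called at 1 to 2 years (adjusted p = 0.0348).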
